A study of Mus musculus with 30 samples.

Results

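The 39 genes described here act in the nucleolus and in ribosome assembly, and were chosen as a named list of 39 symbols, all of which were found among the 22119 to 24601 genes of the count tables of the series. The list was chosen with earlier results of these data known, so counts of its members set against all genes are no independent test. RNA came from the small bowel *muscularis externa* (*ME*), the muscle coat with the enteric nervous system, of naïve male mice and of mice that had undergone intestinal manipulation, an operation that models postoperative ileus, 3 h (IM3h), 24 h (IM24h) or 72 h (IM72h) earlier. The *RiboTag* fraction is mRNA pulled down on HA-tagged ribosomes, and the *ME* fraction is total RNA of the same kind of lysate. The *RiboTag* libraries numbered 3 naïve, 4 IM3h, 4 IM24h and 4 IM72h, and the *ME* libraries 3, 3, 4 and 4, 29 in all. All animals carried the *Rpl22* allele that gives the ribosome its HA tag (B6N.129 Rpl22tm1.1Psam/J), and the study's methods add a tdTomato reporter. In the *RiboTag* libraries, and in the IM24h and IM72h *ME* libraries, the second allele was the *Sox10*-driven inducible Cre (B6 Tg(Sox10-icre/ERT2)388Wdr/J), which tamoxifen activates in *Sox10*-expressing cells, in this tissue the enteric glia. For the naïve and IM3h *ME* libraries the labels name a *Gfap*-cre line instead, so that in total RNA the line and the later time points cannot be told apart. The study's legends give 3 to 4 animals per time point for its sequencing. No single library here could be tied to an animal, so p-values measure the spread between libraries.

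Ribosomes are made in the nucleolus, where RNA polymerase I transcribes the long precursor of the rRNAs. Box C/D particles methylate this RNA and box H/ACA particles turn uridines into pseudouridine, each guided by a small nucleolar RNA (snoRNA). The small subunit processome folds and cuts the part that becomes the 40S subunit, a further set of factors builds the 60S subunit, and cells enlarge this machinery when they grow or divide, often downstream of the transcription factor *Myc*. Enteric glia are the supporting cells of the gut nervous system and turn reactive after surgery. By role the 39 genes fell into 7 groups, of 3 box C/D proteins, 4 box H/ACA proteins, 4 nucleolar chaperones, 4 genes of RNA polymerase I transcription, 9 of the small subunit processome, 5 of late 40S assembly and 10 of 60S assembly.

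A feature the list did not use is that some of these genes span snoRNA genes on the same strand. Of the 39, 7 hosted at least 1 annotated snoRNA (17.95%, 21 snoRNA genes), against 258 of 21924 protein coding genes (1.18%; mm10, GENCODE vM21 models). One box C/D snoRNA is shown for each of 5 hosts, so that the guide RNA can be read beside its host, with box C (TGATGA) and box D (CTGA) in capitals. They lie in *Nop56* (chr2:130275506-130275573, plus strand), *Nop58* (chr1:59704790-59704873, plus strand), *Ncl* (chr1:86356261-86356330, minus strand), *Wdr43* (chr17:71631281-71631365, plus strand) and *Gnl3* (chr14:31014287-31014366, minus strand). The first and the second host encode core proteins of the very particle that forms on these RNAs.
Snord110 in Nop56: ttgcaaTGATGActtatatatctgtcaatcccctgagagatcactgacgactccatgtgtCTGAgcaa
Snord11 in Nop58: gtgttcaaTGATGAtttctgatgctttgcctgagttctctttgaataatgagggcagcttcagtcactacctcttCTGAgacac
Snord82 in Ncl: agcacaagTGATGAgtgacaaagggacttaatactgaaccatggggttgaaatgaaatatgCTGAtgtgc
Snord92 in Wdr43: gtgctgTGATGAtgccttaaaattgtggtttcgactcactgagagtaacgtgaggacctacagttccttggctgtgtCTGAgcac
Snord69 in Gnl3: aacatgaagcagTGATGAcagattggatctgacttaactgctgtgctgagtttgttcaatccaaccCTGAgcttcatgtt

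Promoters, taken from RefSeq (mm10) as the 250 bases before the gene start, matched 35 of the 39 genes and were searched on both strands. The letters CACGTG, an E-box that *Myc* and other factors can bind, occurred in 2 of the 35 (5.71%) against 6.86% of the 27025 genes with a promoter entry, and CCGCCC or its reverse complement GGGCGG in 24 (68.6%) against 35.4%. The members' windows were also richer in G and C than those of all genes (median 58.4% against 52%), and the second motif occurred in 63.2% of the promoters of further large subunit assembly genes and in 59.3% of those for the small subunit. The 2 with the E-box letters, in capitals below, were *Nop2* (chr6:125131796-125131855, plus strand) and *Utp18* (chr11:93885767-93885813, minus strand). The share with the E-box letters was near that of all genes, and their absence from a window says nothing of *Myc* binding elsewhere.
Nop2 promoter window: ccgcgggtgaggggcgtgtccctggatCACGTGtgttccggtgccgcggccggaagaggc
Utp18 promoter window: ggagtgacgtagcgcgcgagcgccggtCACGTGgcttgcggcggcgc

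The libraries held 3010306 to 7899493 counts in *RiboTag* and 6603170 to 12866062 in *ME*. One transcript, AY036118, treated here as an rRNA gene, took up 2.68% to 13.99% of the naïve and 2.02% to 10.3% of the IM3h *RiboTag* counts, but 22.2% to 59.2% at IM24h and 58.0% to 80.1% at IM72h, which, with a few like transcripts set aside as well, left 660109 to 1615523 counts in the IM72h *RiboTag* libraries. In *ME* its share ran the other way, from 16.1% to 33.5% in naïve and 24.1% to 25.1% in IM3h libraries to 1.33% to 6.501% and 2.34% to 3.69% later. With these transcripts removed from the tables, 33 and 36 of the 39 genes were still called higher at IM3h in *RiboTag* and *ME*. Levels are given as CPM, the count scaled to the library's size after TMM scaling within a fraction. The 8 enteric glia markers summed to 1561 to 1884 CPM in naïve *RiboTag* libraries against 118 to 141 CPM in naïve *ME*, and to 1299.5 to 2816, 784 to 927 and 145 to 1471 CPM in IM3h, IM24h and IM72h *RiboTag* libraries, where *Gfra3* was at 0 in the last pair of groups. Of the 8, 1 was higher and 2 lower at IM3h in *RiboTag* (median log2 fold change -0.64), 0 were called at IM24h (edgeR, 2 lower and 0 higher at an unadjusted p under 0.05, median -1.03) and 3 were lower at IM72h (-3.71). In naïve *RiboTag* libraries smooth muscle markers summed to 4890 to 7495 CPM (*ME* 22137 to 23746 CPM) and neuron markers to 618 to 1283 CPM (*ME* 594 to 629 CPM). Fibroblast markers summed to 641 to 755 CPM (*ME* 1954 to 2068 CPM) and macrophage markers to 89 to 173 CPM (*ME* 187 to 196 CPM). Markers of other cell types were thus also present in the pulldown.

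The first comparison asked what the operation did within 3 h. At IM3h the genes rose together in both fractions. In *RiboTag*, 33 of the 39 were higher than in naïve libraries and 0 lower (edgeR quasi-likelihood test, Benjamini-Hochberg adjusted p under 0.05 over 16053 genes), where 8.86% of all genes were called higher and 4.44% lower. Their median log2 fold change was 1.93, a 3.81-fold rise, against -0.04 over all genes. In *ME*, 36 were higher and 0 lower against 19.3% and 13.4% of 15333 genes, with a median of 1.38 (2.61-fold) against 0.00. The IM3h and naïve libraries did not overlap, with IM3h higher, for 32 members in *RiboTag* (all genes 14.4%) and for 39 in *ME* (23.4%). The 33 genes called in *RiboTag* were all called in *ME*. *Npm3*, *Polr1b* and *Bop1* were called in neither fraction, and *Nop10*, *Bysl* and *Polr1a* in *ME* alone. In bulk RNA, more tagged or dividing cells of a type and more RNA per cell cannot be told apart. The number called in *RiboTag* fell to 10 with scaling by *Actb*, *Hsp90ab1* and *Rplp1* and to 2 when all 15 libraries shared one estimate of the spread, with a median of 1.56 under the former. DESeq2 called 34 higher and 0 lower in *RiboTag* and 36 and 0 in *ME*, and at an unadjusted p under 0.05 edgeR gave 34 and 0, and 38 and 0.

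**Figure D1:**
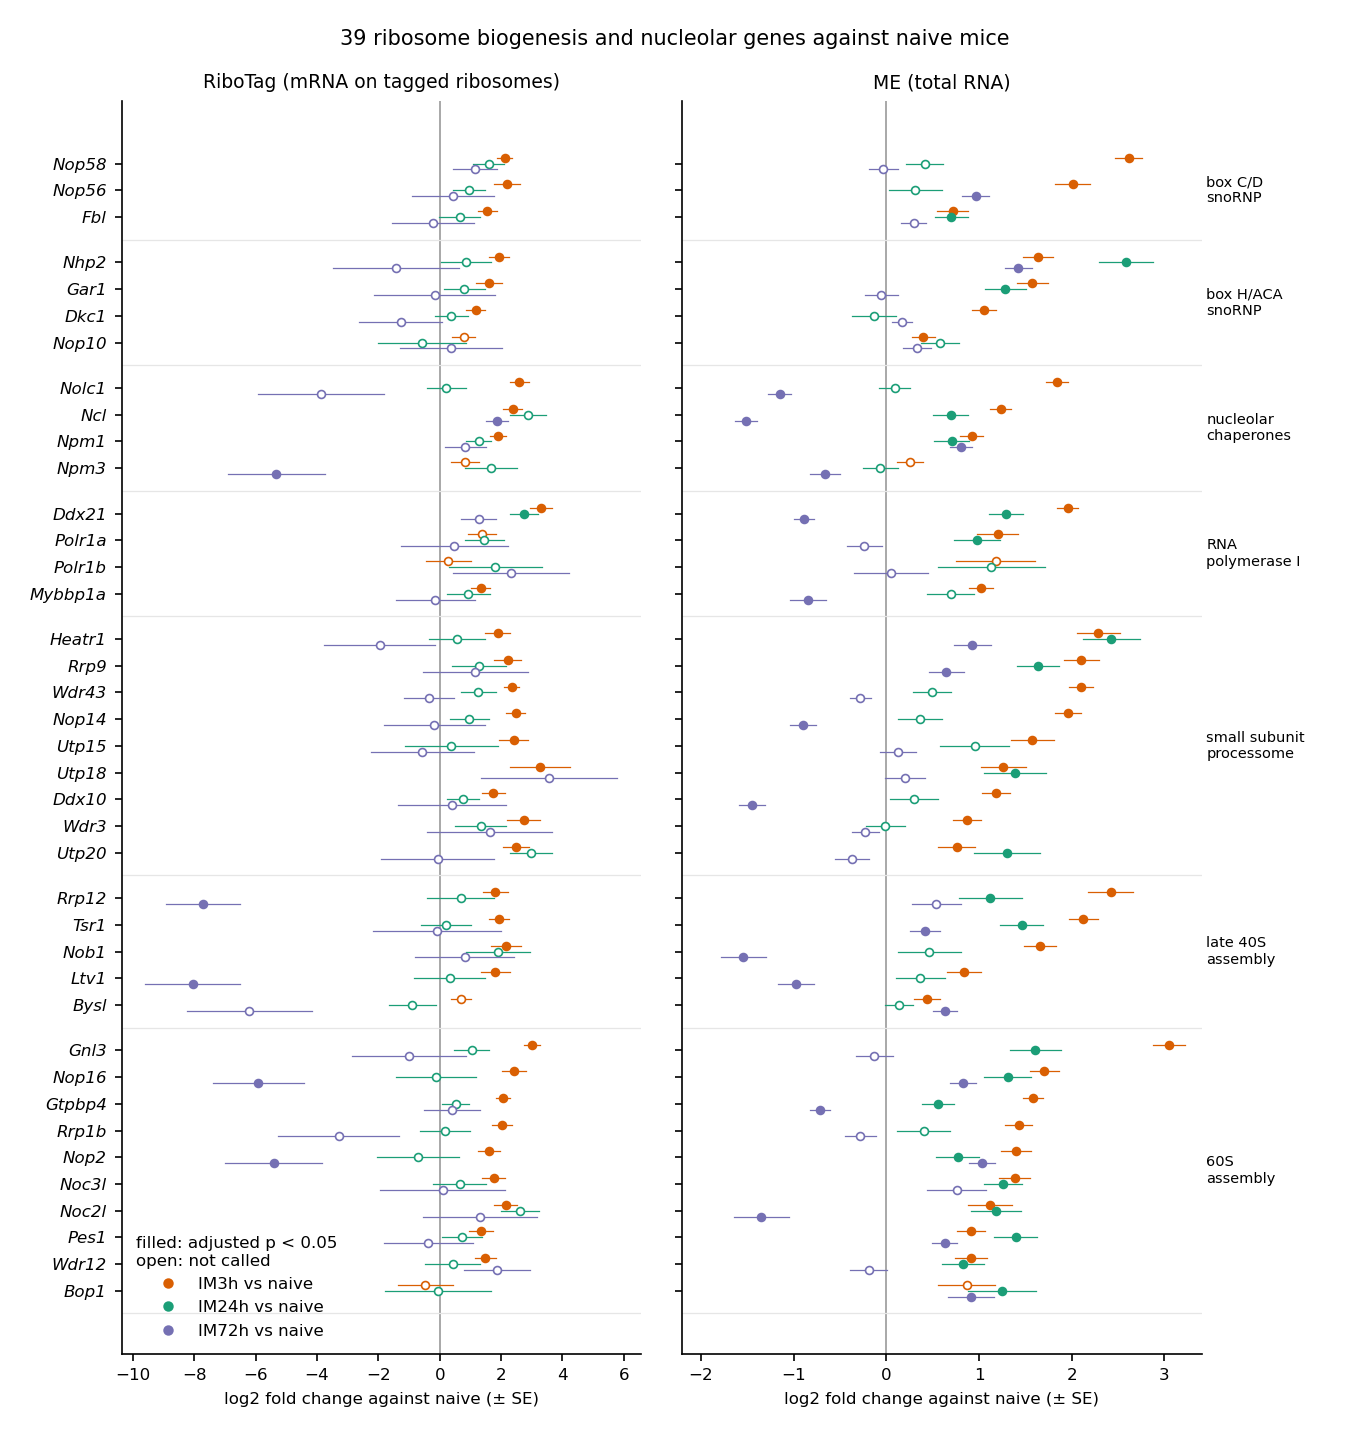
Log2 fold change against naïve libraries of each of the 39 genes, by role group, at IM3h, IM24h and IM72h, in *RiboTag* and *ME*, with standard errors from edgeR. At IM3h nearly all points lie to the right of 0, with medians of 1.93 and 1.38, and at IM72h the *ME* points lie on both sides.

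At IM24h the rise was smaller. In *ME*, 22 of the 39 genes were higher and 0 lower (15.6% and 13.4% of 16328 genes), with a median of 0.77 (1.71-fold) against 0.02, with DESeq2 giving 24 and 0 and an unadjusted p under 0.05 giving 26 and 0, and 24 lay above all naïve libraries (20.1% of genes). The 22 became 38 with scaling by library total, 8 with scaling by *Actb*, *Hsp90ab1* and *Rplp1* and 13 without naïve library 2. The members' median stayed 0.74 and 0.72 above that of all genes under these scalings, against 0.75 with TMM. In *RiboTag*, *Ddx21* alone was called, of 38 genes tested, and 0 were lower (edgeR, 0.366% and 0.131% of 15304 genes). At an unadjusted p under 0.05, 8 were higher and 0 lower (7.14% and 6.03% of genes), 8 of them with more than a 2-fold change (6.62% and 5.85%). All IM24h libraries lay above naïve for 8 (6.72% of genes). DESeq2 called 4 higher and 0 lower, and the median was 0.78 against -0.11. *Utp18* was too low there for the test. The *Ddx21* call was lost with scaling by library total, without scaling and with scaling by *Actb*, *Hsp90ab1* and *Rplp1*, under which no member was called. With 1 library left out, 0 to 6 members were called, the highest number without IM24h library 1. Scaling by library total or by *Actb*, *Hsp90ab1* and *Rplp1* moved the *RiboTag* median of all genes to -0.96 and -1.51 and that of the members to -0.02 and -0.62. The members then lay 0.94 and 0.88 above all genes, against 0.89 with TMM. IM24h libraries 2 and 3 had the highest AY036118 shares of their group, and without them 2 members were called.

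At IM72h the genes no longer moved together. In *ME*, 11 were higher and 11 lower (29.3% and 28.3% of 16592 genes), with a median of -0.03 against 0.02, and 12 higher and 12 lower at an unadjusted p under 0.05 (31.8% and 30.5%). This split moved to 20 higher and 5 lower with scaling by library total, to 25 and 0 without scaling, and to 1 and 21 with scaling by *Actb*, *Hsp90ab1* and *Rplp1*. These scalings moved the median of all genes alike, to 0.62, 0.98 and -0.58. The members' median stayed 0.06, 0.04 and 0.04 below it. In *RiboTag*, *Ncl* was higher and *Npm3*, *Ltv1*, *Rrp12*, *Nop2* and *Nop16* lower, of 38 tested (1.05% and 15.1% of 13572 genes). Without the filter on low counts none of these 6 calls remained (adjusted p = 0.0978 to 0.181), and those of *Npm3*, *Nop2* and *Nop16* were also lost with some single library left out. At an unadjusted p under 0.05, 1 was higher and 6 lower (3.12% and 19.4% of genes), all by more than 2-fold (3.1% and 19.4%). All IM72h *RiboTag* libraries lay above naïve for 3 genes and below for 8 (2.87% and 27.8%). The *RiboTag* median of -0.12 lay above the -0.40 of all genes. Of the 39 genes, 17, 7, 17 and 16 had no count in the 4 IM72h *RiboTag* libraries, against none in any naïve, IM3h or *ME* library. For *Npm3*, *Bysl*, *Ltv1*, *Rrp12*, *Nop2*, *Nop16* and *Bop1* no IM72h library held more than 3 counts. Against a floor of 3 counts in the group's libraries, these were at least 6.39, 13.2, 3.82, 3.01, 4.76, 4.92 and 3.25-fold lower than in naïve libraries, in that order. With 6 of them set to their bounds, the median of the 38 genes tested stayed at -0.12, and *Bop1* was not tested. The comparisons at the 3 time points share the naïve libraries of their fraction.

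**Figure D2:**
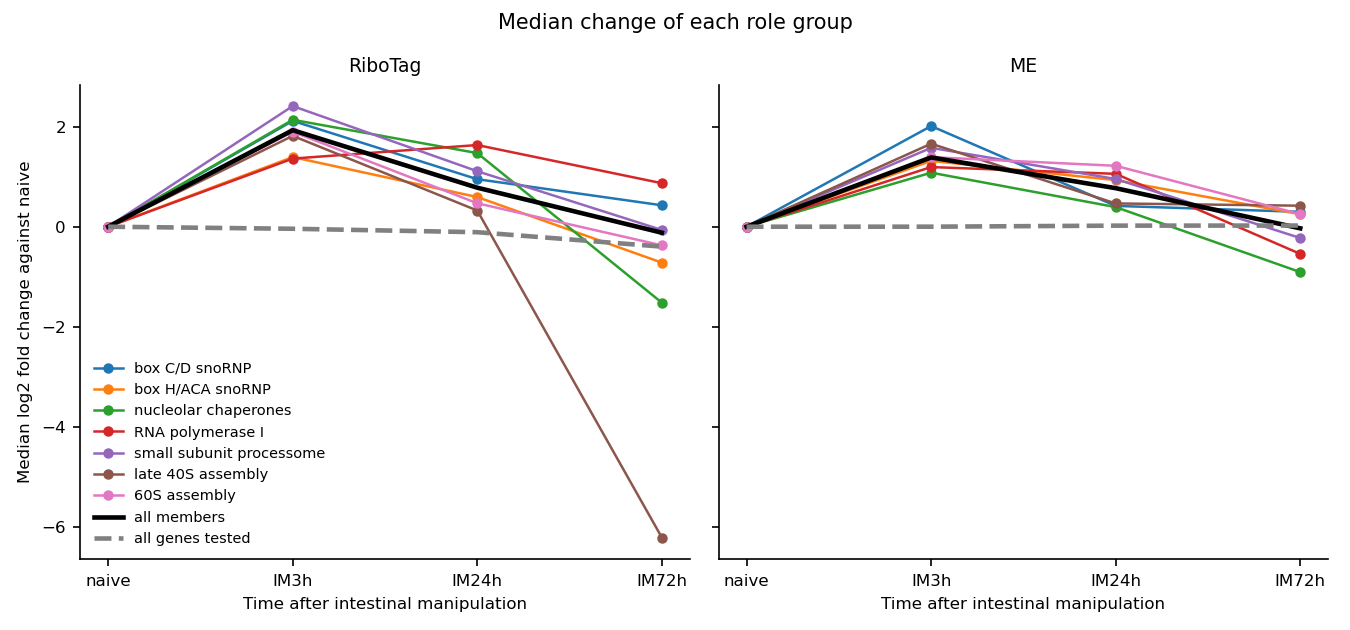
Median log2 fold change against naïve libraries of each of the 7 role groups at IM3h, IM24h and IM72h, in *RiboTag* and *ME*. All 7 medians are above 0 at IM3h in both fractions, and the *RiboTag* median of the late 40S group at IM72h, -6.21, rests on genes with 3 or fewer counts.

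The 3 box C/D proteins, *Nop56* and *Nop58*, which form the core of the particle, and *Fbl*, the enzyme that transfers the methyl group, all rose at IM3h in both fractions. The group median of the log2 fold change was 2.11, 0.95 and 0.43 in *RiboTag* at the 3 times in order, and 2.01, 0.42 and 0.30 in *ME*. *Nop58* in *ME* had 44.004, 49.3 and 57.5 CPM in the naïve libraries, then 281, 269 and 344 CPM in the IM3h libraries, then 64.6, 67.8, 86.6 and 50.2 CPM in the IM24h libraries, and 45.8, 47.1, 44.5 and 63.4 CPM at IM72h. The 3 IM3h libraries stood far above all others, at a log2 fold change of 2.61 ± 0.15 (SE), adjusted p = 1.22e-06, and the IM72h libraries overlapped the naïve ones (-0.03 ± 0.15 (SE), adjusted p = 0.870). In *RiboTag* *Nop58* rose from 48.997, 68.5 and 56.3 CPM to 201.1, 226, 233 and 304 CPM at IM3h, with no overlap (2.11 ± 0.25 (SE), adjusted p = 3.26e-04), and read 49.6, 187, 251 and 211 CPM at IM24h and 160.4, 35.5, 198 and 114 CPM at IM72h. One library of each later group, IM24h library 1 and IM72h library 2, was not above the naïve libraries. *Nop56* had 32.2, 23.1 and 31.1 CPM in the naïve libraries, then 56.6, 93.7, 121 and 232 CPM in the IM3h libraries of *RiboTag* (2.18 ± 0.42 (SE), adjusted p = 0.00600). All 4 IM3h libraries were higher, and library 4 was the highest of them. In *ME*, *Nop56* went from 17.8, 26.05 and 23.2 CPM through 84.8, 70.2 and 105 CPM at IM3h and 34.2, 29.6, 32.5 and 14.7 CPM at IM24h to 42.8, 45.01, 40.5 and 48.6 CPM at IM72h. It rose at IM3h (2.01 ± 0.19 (SE), adjusted p = 3.55e-05), overlapped naïve at IM24h, and rose again from IM24h to IM72h (0.63 ± 0.23 (SE), adjusted p = 0.0486), against the direction of most of the 39 genes. *Fbl* was the least changed of the 3 at IM3h in both fractions. Its *RiboTag* levels were 22.2, 14.3 and 14.6 CPM in naïve and 35.2, 55.5, 47.9 and 53.7 CPM in IM3h libraries (1.56 ± 0.31 (SE), adjusted p = 0.00648), and its *ME* levels 32.3, 23.5 and 32.8 CPM and 46.9, 53.6 and 40.7 CPM (0.71 ± 0.16 (SE), adjusted p = 0.00782), with no overlap in either fraction. At IM24h *Fbl* in *ME* read 48.6, 53.9, 48.2 and 42.7 CPM (0.70 ± 0.18 (SE), adjusted p = 0.0147), all above naïve. Leaving out 1 library ended calls of Fbl (without naïve library 2, adjusted p up to 0.0720) at IM24h and Nop56 (without IM24h library 2 or 3 or IM72h library 1 or 2 or 3 or 4, adjusted p up to 0.0991) from IM24h to IM72h. Over all 44 calls of the 39 genes that were lost in this way, 8 of them in 1 fit alone, the log2 fold changes in the fits that lost the call were 64.3% to 123% of those with all libraries.

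Of the 4 box H/ACA proteins, *Dkc1* is the pseudouridine synthase, and *Gar1*, *Nhp2* and *Nop10* are its partners. 3 of 4 rose at IM3h in *RiboTag* and 4 of 4 in *ME*. The median of their log2 fold changes was 1.39, 0.59 and -0.72 in *RiboTag* at the 3 times in order, and 1.31, 0.93 and 0.25 in *ME*. *Nhp2* changed most. In *ME* it had 8.34, 9.04 and 10.3 CPM in the naïve libraries, then 25.9, 29.4 and 28.1 CPM in the IM3h libraries, 56.1, 71.1, 65.03 and 30.7 CPM at IM24h and 27.5, 25.3, 24.7 and 23.9 CPM at IM72h. All later libraries lay above the naïve ones, and IM24h was the highest group. Its log2 fold changes were 1.64 ± 0.17 (SE), adjusted p = 5.59e-05, 2.59 ± 0.29 (SE), adjusted p = 2.63e-04 and 1.42 ± 0.14 (SE), adjusted p = 1.54e-05 at the 3 times, and *Nhp2* was the only member called higher at IM24h than at IM3h (1.04 ± 0.26 (SE), adjusted p = 0.0143), where 1 of 39 was higher and 15 lower (all genes 14.2% and 13.4%). In *RiboTag* *Nhp2* rose from 14.8, 8.21 and 11.4 CPM to 38.5, 49.5, 34.97 and 45.2 CPM at IM3h (1.93 ± 0.32 (SE), adjusted p = 0.00235), then read 13.7, 14.9, 9.37 and 43.4 CPM at IM24h and 0, 17.7, 0 and 0 CPM at IM72h. Only library 2 held counts at the last time. *Nop10* changed least at IM3h, with 12.9, 12.6 and 19.3 CPM in the naïve libraries, then 27.4, 33.1, 23.9 and 14.5 CPM in the IM3h libraries of *RiboTag* (0.78 ± 0.37 (SE), adjusted p = 0.199). Library 4 overlapped the naïve range. Its *ME* levels rose from 72.4, 62.4 and 67.3 CPM to 82.9, 98.7 and 76.8 CPM (0.40 ± 0.12 (SE), adjusted p = 0.0310), without overlap. With scaling by *Actb*, *Hsp90ab1* and *Rplp1*, *Nop10* was at -0.01 and the median of all genes at -0.41. It lay 0.40 above all genes under both scalings. *Dkc1* in *RiboTag* had 46.3, 40.3 and 41.5 CPM in the naïve libraries, then 57.5, 95.9, 78.5 and 138 CPM in the IM3h libraries (1.17 ± 0.31 (SE), adjusted p = 0.0256). In *ME* it rose from 37.6, 38.3 and 37.2 CPM to 78.9, 65.5 and 82.8 CPM (1.06 ± 0.13 (SE), adjusted p = 1.71e-04) and was back at 37.2, 28.9, 48.8 and 22.6 CPM at IM24h (-0.14 ± 0.24 (SE), adjusted p = 0.704). The IM24h libraries lay on both sides of the naïve ones. Calls that were lost with 1 library left out were those of Dkc1 (without IM3h library 2 or naïve library 1 or 2 or 3, adjusted p up to 0.0944) and Gar1 (without IM3h library 2 or 3 or naïve library 2 or 3, adjusted p up to 0.104) in *RiboTag* at IM3h, Nop10 (without IM3h library 1 or 2 or naïve library 1 or 2 or 3, adjusted p up to 0.156) in *ME* at IM3h, and Nhp2 (without IM3h library 1 or 2 or 3, adjusted p up to 0.0620) between IM24h and IM3h.

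The chaperones parted from each other with time. *Ncl* (nucleolin) and *Npm1* (nucleophosmin) are the most abundant proteins of the nucleolus, *Npm3* is a relative of *Npm1*, and *Nolc1* shuttles between nucleolus and cytoplasm and binds snoRNA particles. The median over the group, on the log2 scale, was 2.14, 1.47 and -1.52 in *RiboTag* at the 3 times in order, and 1.08, 0.39 and -0.91 in *ME*. *Ncl* in *RiboTag* had 396, 322 and 349 CPM in the naïve libraries, then 1273, 1358, 1893 and 2595 CPM in the IM3h libraries, then 581, 3286, 3764 and 2869 CPM in the IM24h libraries, and 1469, 908, 1665 and 1105 CPM at IM72h. Every library after surgery lay above the naïve ones. The log2 fold changes were 2.38 ± 0.31 (SE), adjusted p = 5.42e-04 at IM3h, 2.88 ± 0.58 (SE), adjusted p = 0.0507 at IM24h and 1.87 ± 0.37 (SE), adjusted p = 0.0115 at IM72h. In *ME*, *Ncl* rose from 391, 430.1 and 393 CPM to 840.5, 896 and 1033 CPM at IM3h (1.24 ± 0.11 (SE), adjusted p = 2.94e-05) and 672, 738, 746 and 469 CPM at IM24h (0.69 ± 0.19 (SE), adjusted p = 0.0192). At IM72h it read 144, 145, 125 and 166 CPM, below every naïve library (-1.51 ± 0.12 (SE), adjusted p = 3.34e-06). Without scaling the *RiboTag* value of *Ncl* at IM72h was -0.48 where the median of all genes was -2.60, a distance of 2.13 against 2.27 with TMM. *Npm1* in *ME* stayed above naïve at all 3 times, with 258, 213 and 212 CPM in naïve, 399.6, 377 and 474 CPM in IM3h, 409, 385, 427 and 268 CPM in IM24h and 425, 417, 388 and 396 CPM in IM72h libraries. Its log2 fold changes were 0.92 ± 0.12 (SE), adjusted p = 3.48e-04, 0.70 ± 0.19 (SE), adjusted p = 0.0186 and 0.81 ± 0.12 (SE), adjusted p = 1.60e-04. In *RiboTag* it rose from 77.6, 111 and 99.6 CPM to 337, 432, 295 and 308 CPM at IM3h (1.89 ± 0.25 (SE), adjusted p = 6.21e-04) and read 100.05, 123, 79.7 and 385 CPM at IM72h, where only library 4 was far above naïve. *Nolc1* rose most at IM3h, from 36.5, 40.7 and 20.5 CPM to 139, 189, 181 and 251 CPM in *RiboTag* (2.60 ± 0.32 (SE), adjusted p = 3.76e-04) and from 38.8, 43.9 and 39.1 CPM to 131, 136 and 156 CPM in *ME* (1.85 ± 0.12 (SE), adjusted p = 2.76e-06). No IM3h library came near a naïve one. At IM24h it was back among the naïve levels in *ME*, at 41.1, 49.3, 48.3 and 34.2 CPM, and at IM72h below them, at 19.6, 17.5, 16.5 and 20.9 CPM (-1.15 ± 0.13 (SE), adjusted p = 2.81e-05). In *RiboTag* *Nolc1* was also lower at IM24h than at IM3h (-2.30 ± 0.49 (SE), adjusted p = 0.0342). *Npm3* changed least at IM3h, with 17.9, 7.31 and 11.05 CPM in the naïve libraries, then 11.6, 31.4, 22.2 and 16.3 CPM in the IM3h libraries of *RiboTag* (0.82 ± 0.45 (SE), adjusted p = 0.281), which overlapped. Its *ME* levels were 26.5, 31.9 and 28.1 CPM in naïve, 33.8, 32.02 and 33.6 CPM in IM3h and 17.7, 17.2, 15.5 and 23.6 CPM in IM72h libraries, with 0.26 ± 0.14 (SE), adjusted p = 0.183 and -0.66 ± 0.16 (SE), adjusted p = 0.00487. In the IM72h *RiboTag* libraries it had 0, 0.443, 0 and 0.626 CPM. Calls lost with some library left out were those of Ncl (without IM24h library 3 or naïve library 1 or 2 or 3, adjusted p up to 0.0937) and Npm1 (without IM24h library 3 or naïve library 2 or 3, adjusted p up to 0.0928) in *ME* at IM24h, Npm3 (without IM72h library 3 or naïve library 1 or 2 or 3, adjusted p up to 0.175) in *RiboTag* at IM72h, and Nolc1 (without IM24h library 2 or 3 or 4 or IM3h library 1 or 2 or 3 or 4, adjusted p up to 0.0963) between IM24h and IM3h in *RiboTag*.

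**Figure D3:**
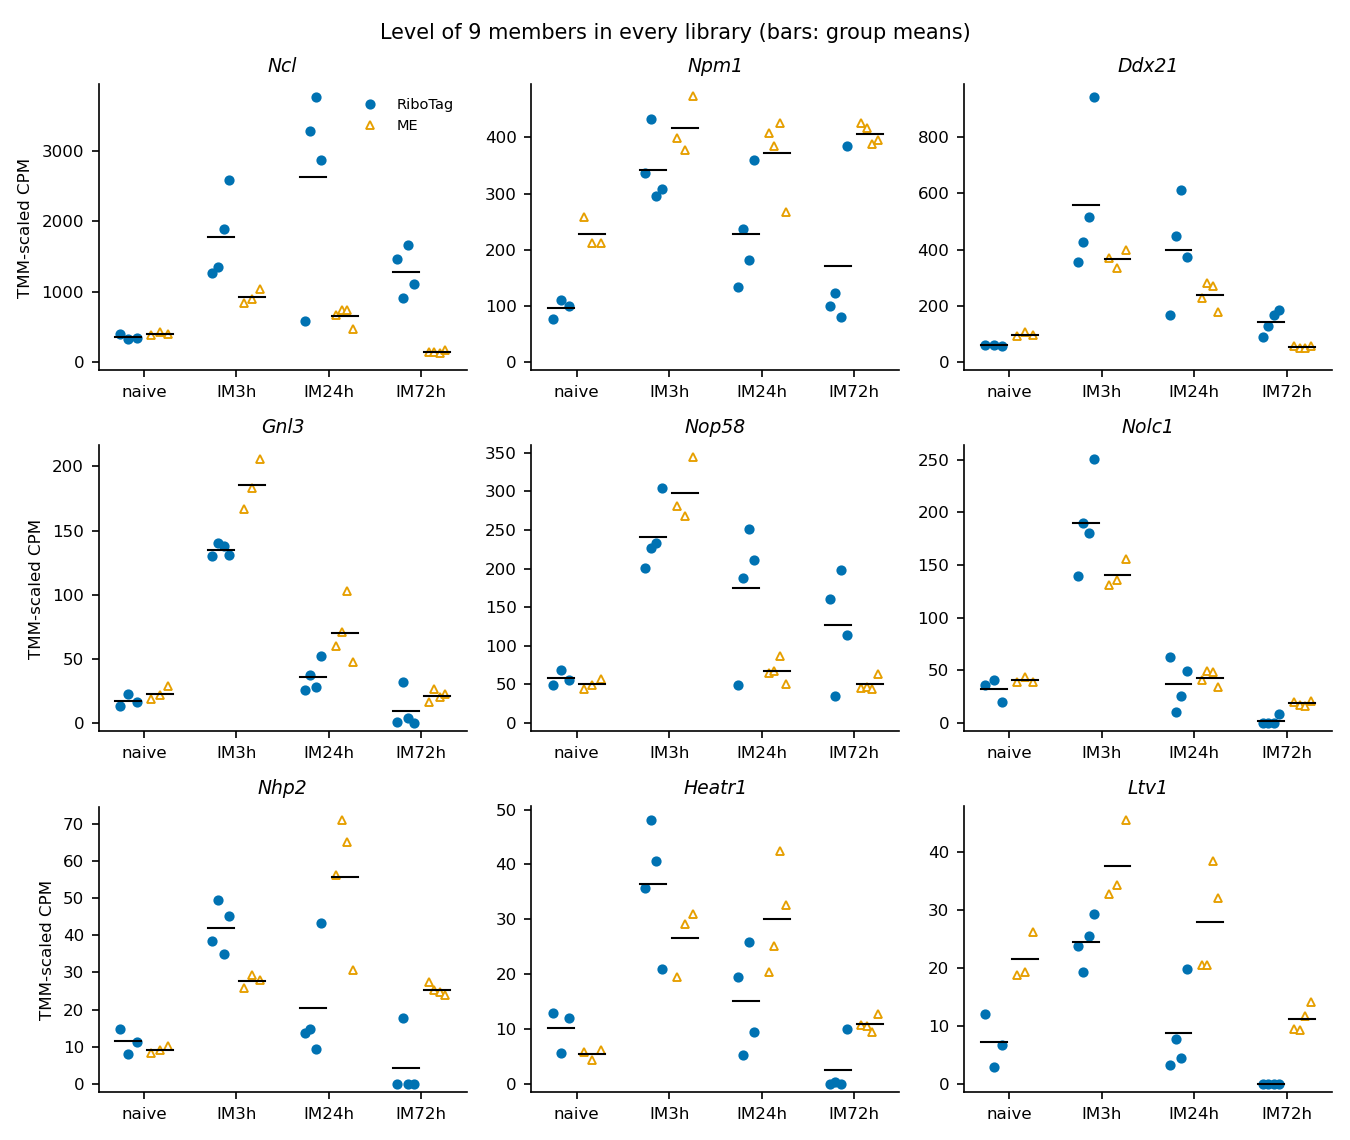
CPM of 9 genes in each of the 29 libraries (vertical axis, TMM-scaled), by group and fraction, with bars at the group means. *Ncl*, *Ddx21* and *Nolc1* in *ME* are high at IM3h and below the naïve libraries at IM72h, whereas *Npm1*, *Nhp2* and *Heatr1* in *ME* stay above them.

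Among the genes of RNA polymerase I transcription, the helicase *Ddx21* moved most against naïve at IM3h and IM24h in both fractions. Of the catalytic subunits, *Polr1a* was called in *ME* and *Polr1b* in neither fraction at IM3h. On the log2 scale the median fold change was 1.36, 1.63 and 0.87 in *RiboTag* at the 3 times in order, and 1.19, 1.06 and -0.54 in *ME*. *Ddx21* in *RiboTag* had 61.5, 61.1 and 55.7 CPM in the naïve libraries, then 355, 427, 516 and 943 CPM in the IM3h libraries, then 166, 450.2, 612 and 373 CPM in the IM24h libraries, and 90.95, 129, 166 and 184 CPM at IM72h. All libraries after surgery were above the 3 naïve ones. The log2 fold changes were 3.29 ± 0.36 (SE), adjusted p = 1.82e-04, 2.75 ± 0.45 (SE), adjusted p = 0.0206 and 1.27 ± 0.57 (SE), adjusted p = 0.224, and Ddx21 (without IM24h library 2 or 4 or naïve library 1 or 2 or 3, adjusted p up to 0.180) lost its IM24h call when 1 library was left out. In *ME*, *Ddx21* went from 92.6, 105 and 96.003 CPM to 369, 336 and 397 CPM at IM3h (1.96 ± 0.12 (SE), adjusted p = 1.80e-06) and 228, 282, 271 and 178 CPM at IM24h (1.29 ± 0.18 (SE), adjusted p = 7.95e-04). At IM72h it was at 58.2, 51.1, 50.8 and 55.8 CPM, below naïve (-0.89 ± 0.11 (SE), adjusted p = 5.13e-05). *Polr1b* was among the lowest of the 39, with 5.697, 2.92 and 3.17 CPM in the naïve libraries, then 7.77, 4.46, 3.47 and 2.799 CPM in the IM3h libraries of *RiboTag* (0.29 ± 0.72 (SE), adjusted p = 0.853), and the groups overlapped. In *ME* it read 2.297, 1.29 and 2.78 CPM and 6.62, 3.69 and 3.99 CPM, all IM3h libraries above, at 1.18 ± 0.42 (SE), adjusted p = 0.0564. *Polr1a* had log2 fold changes of 1.38 ± 0.45 (SE), adjusted p = 0.0610 in *RiboTag* and 1.204 ± 0.22 (SE), adjusted p = 0.00240 in *ME* at IM3h. *Mybbp1a*, a nucleolar Myb-binding protein that associates with the polymerase, rose at IM3h in *ME* from 42.3, 43.1 and 41.3 CPM to 69.9, 86.6 and 92.4 CPM (1.02 ± 0.13 (SE), adjusted p = 1.91e-04), and at IM72h lay below naïve at 17.6, 21.5, 22.4 and 33.9 CPM (-0.85 ± 0.19 (SE), adjusted p = 0.00318). In *RiboTag* it read 17.3, 32.6 and 22.6 CPM and, at IM3h, 44.4, 67.5, 48.2 and 75.2 CPM (1.34 ± 0.32 (SE), adjusted p = 0.0159), without overlap. Leaving out 1 library ended calls of Mybbp1a (without naïve library 1 or 3, adjusted p up to 0.0728) in *RiboTag* at IM3h and Polr1a (without naïve library 1 or 3, adjusted p up to 0.0842) in *ME* at IM24h.

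All 9 genes of the small subunit processome rose at IM3h in both fractions. For the group as a whole the median log2 fold change was 2.41, 1.11 and -0.07 in *RiboTag* at the 3 times in order, and 1.58, 0.95 and -0.23 in *ME*. *Heatr1* and *Utp15* belong to the complex that first binds the rRNA precursor. *Heatr1* in *ME* had 5.92, 4.31 and 6.295 CPM in the naïve libraries, then 19.4, 29.2 and 30.9 CPM in the IM3h libraries, 20.3, 25.1, 42.5 and 32.6 CPM at IM24h and 10.8, 10.5, 9.51 and 12.7 CPM at IM72h. Every library after surgery was higher than the naïve ones (2.28 ± 0.23 (SE), adjusted p = 5.54e-05, 2.43 ± 0.30 (SE), adjusted p = 4.00e-04 and 0.93 ± 0.20 (SE), adjusted p = 0.00237). In *RiboTag*, *Heatr1* rose from 12.9, 5.74 and 12.1 CPM to 35.8, 48.1, 40.6 and 20.99 CPM (1.89 ± 0.41 (SE), adjusted p = 0.0100), and at IM72h only library 4 held more than 1 CPM. *Utp18*, of the complex that joins next, had the largest fitted change of the 9 in *RiboTag*, from 0.380, 5.96 and 0.235 CPM to 29.6, 28.1, 20.5 and 4.76 CPM (3.28 ± 0.98 (SE), adjusted p = 0.0457). Naïve library 2 lay above IM3h library 4. In *ME* it rose from 8.34, 4.95 and 9.201 CPM to 15.1, 19.9 and 18.3 CPM without overlap (1.26 ± 0.24 (SE), adjusted p = 0.00311). *Ddx10*, an RNA helicase, changed least of the 9 in *RiboTag*, from 16.2, 28.8 and 37.7 CPM to 56.2, 102, 72.2 and 126 CPM (1.75 ± 0.37 (SE), adjusted p = 0.00859). In *ME* it went from 25.02, 33.8 and 29.3 CPM to 60.9, 59.9 and 71.98 CPM at IM3h (1.18 ± 0.15 (SE), adjusted p = 2.34e-04) and to 10.002, 11.1, 11.02 and 11.6 CPM at IM72h (-1.45 ± 0.14 (SE), adjusted p = 1.41e-05). The IM72h libraries were all below naïve. *Utp20*, which acts on both subunits' precursors, changed least in *ME* at IM3h, from 12.8, 17.4 and 11.9 CPM to 25.1, 19.9 and 23.1 CPM (0.76 ± 0.20 (SE), adjusted p = 0.0153), but rose in *RiboTag* from 4.305, 6.41 and 3.41 CPM to 15.999, 24.03, 28.8 and 32.9 CPM (2.49 ± 0.42 (SE), adjusted p = 0.00266). Its IM24h *RiboTag* libraries read 25.03, 50.8, 35.3 and 37.8 CPM, all above naïve (2.99 ± 0.68 (SE), adjusted p = 0.0703). At IM72h it was detected in library 2 alone. *Utp15* in *RiboTag* had 6.84, 1.7998 and 7.05 CPM in the naïve libraries, then 28.998, 29.5, 26.9 and 21.6 CPM in the IM3h libraries (2.41 ± 0.48 (SE), adjusted p = 0.00664), and its IM72h level in *ME*, 6.64, 8.05, 7.93 and 6.83 CPM, overlapped the naïve 7.13, 5.597 and 6.901 CPM. *Wdr3*, a partner of *Utp18*, was the least changed in *ME* at IM24h, from 18.6, 17.7 and 14.8 CPM to 16.1, 14.7, 20.9 and 15.96 CPM (-0.01 ± 0.21 (SE), adjusted p = 0.976). Calls that were lost with 1 library left out were those of Utp18 (without IM3h library 1 or 2 or 3 or naïve library 1 or 3, adjusted p up to 0.137) in *RiboTag* at IM3h, Utp20 (without naïve library 1 or 3, adjusted p up to 0.0870) in *ME* at IM3h, and Utp18 (without naïve library 2, adjusted p up to 0.0544) and Utp20 (without IM24h library 3 or naïve library 1 or 3, adjusted p up to 0.0841) in *ME* at IM24h.

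The late 40S factors complete the small subunit in the cytoplasm. 4 of 5 rose at IM3h in *RiboTag* and 5 of 5 in *ME*. Group medians of the log2 fold change were 1.82, 0.32 and -6.21 in *RiboTag* at the 3 times in order, and 1.66, 0.47 and 0.42 in *ME*. The -6.21 is a fitted value that rests on genes with 3 or fewer counts in every IM72h *RiboTag* library, so its size is not known. Against the floor of 3 counts, *Bysl*, *Ltv1* and *Rrp12* were at least 13.2, 3.82 and 3.01-fold lower. *Nob1*, the nuclease that cuts the end of the 18S rRNA, had 8.22, 7.32 and 8.23 CPM in the naïve libraries, then 20.99, 25.7 and 26.4 CPM in the IM3h libraries of *ME* (1.66 ± 0.18 (SE), adjusted p = 7.11e-05), 5.65, 11.6, 13.4 and 13.3 CPM at IM24h and 2.69, 2.11, 2.79 and 3.51 CPM at IM72h (-1.54 ± 0.24 (SE), adjusted p = 2.55e-04). All IM3h libraries were above naïve and all IM72h libraries below. In *RiboTag* it rose from 4.94, 3.94 and 2.94 CPM to 12.1, 10.7, 20.7 and 24.8 CPM (2.17 ± 0.49 (SE), adjusted p = 0.0122). *Rrp12*, an export factor, rose most in *ME*, from 3.02, 3.23 and 4.24 CPM to 15.6, 17.3 and 22.1 CPM (2.42 ± 0.25 (SE), adjusted p = 5.54e-05), and read 7.16, 8.51, 8.29 and 6.77 CPM at IM24h (1.12 ± 0.34 (SE), adjusted p = 0.0302) and 4.03, 6.47, 5.59 and 4.81 CPM at IM72h, the last overlapping naïve. In *RiboTag* it went from 4.81, 5.17 and 7.05 CPM to 20.4, 25.2, 16.7 and 14.2 CPM (1.80 ± 0.41 (SE), adjusted p = 0.0130), and no IM72h library held a count. *Ltv1*, which accompanies the particle out of the nucleus, had 12.03, 2.92 and 6.699 CPM in the naïve libraries, then 23.8, 19.3, 25.5 and 29.4 CPM in the IM3h libraries of *RiboTag* (1.82 ± 0.47 (SE), adjusted p = 0.0246), without overlap, and no count at IM72h. In *ME* its IM72h levels of 9.498, 9.26, 11.7 and 14.2 CPM lay below the naïve 18.9, 19.4 and 26.3 CPM (-0.98 ± 0.19 (SE), adjusted p = 0.00133). *Tsr1*, a GTPase-like assembly factor, was the highest changed of the 5 at IM24h in *ME*, from 14.6, 10.98 and 15.1 CPM to 34.9, 41.4, 46.9 and 27.7 CPM (1.46 ± 0.23 (SE), adjusted p = 0.00132), and was still higher at IM72h, with 16.1, 19.5, 18.3 and 20.9 CPM (0.42 ± 0.16 (SE), adjusted p = 0.0444). *Bysl* (bystin) changed least at IM3h, with 26.8, 22.7 and 25.03 CPM in the naïve libraries, then 23.9, 53.6, 43.4 and 34.1 CPM in the IM3h libraries of *RiboTag* (0.70 ± 0.32 (SE), adjusted p = 0.188), where library 1 overlapped. In *ME* it was at 39.2, 43.5 and 43.9 CPM, 45.5, 62.6 and 58.4 CPM at IM3h (0.44 ± 0.14 (SE), adjusted p = 0.0353) and 54.97, 72.03, 69.7 and 70.9 CPM at IM72h (0.64 ± 0.13 (SE), adjusted p = 0.00150). With *Nop56* it was 1 of 2 members that rose from IM24h to IM72h (0.49 ± 0.14 (SE), adjusted p = 0.0170). Among these genes, calls lost with some library left out were those of Nob1 (without naïve library 3, adjusted p up to 0.0611), Rrp12 (without IM3h library 2 or naïve library 2, adjusted p up to 0.0510) and Ltv1 (without IM3h library 3 or naïve library 2 or 3, adjusted p up to 0.0924) in *RiboTag* at IM3h. In *ME* they were those of Bysl (without IM3h library 2 or 3 or naïve library 1 or 2 or 3, adjusted p up to 0.166) at IM3h, Rrp12 (without IM24h library 3 or naïve library 1 or 2 or 3, adjusted p up to 0.136) at IM24h, Tsr1 (without IM72h library 2 or 3 or 4 or naïve library 1 or 2 or 3, adjusted p up to 0.130) at IM72h, and Bysl (without IM72h library 2, adjusted p up to 0.0519) from IM24h to IM72h. With scaling by *Actb*, *Hsp90ab1* and *Rplp1*, *Tsr1* at IM72h was at -0.18 and the median of all genes at -0.58.

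Of the 10 genes of 60S assembly, 9 rose at IM3h in *RiboTag* and 9 in *ME*, all but *Bop1*. At IM24h in *ME* 9 were higher (15.6% of all genes), 8 of them also higher at IM3h. Of all genes higher at IM3h in *ME*, 40.9% were higher again at IM24h. The median log2 fold change of the group was 1.90, 0.47 and -0.37 in *RiboTag* at the 3 times in order, and 1.39, 1.22 and 0.25 in *ME*. *Gnl3* (nucleostemin), a nucleolar GTPase of growing cells, rose most at IM3h in both fractions. In *RiboTag* it had 13.4, 22.4 and 16.6 CPM in the naïve libraries, then 130.4, 141, 138 and 131 CPM in the IM3h libraries, and the IM3h libraries were close together and far above naïve (3.01 ± 0.27 (SE), adjusted p = 4.47e-05). In *ME* it went from 18.5, 21.5 and 28.8 CPM to 167, 183 and 206 CPM at IM3h (3.05 ± 0.17 (SE), adjusted p = 1.23e-06) and 60.4, 71.3, 103 and 47.4 CPM at IM24h (1.61 ± 0.27 (SE), adjusted p = 0.00200). At IM72h the 16.2, 26.4, 20.5 and 22.8 CPM overlapped naïve. *Gnl3* was the other of 2 members lower at IM24h than at IM3h in *RiboTag* (-1.85 ± 0.35 (SE), adjusted p = 0.0206; all genes 0.903%), where 0 were higher (0.939% of genes; edgeR with either scaling, 0 also at an unadjusted p under 0.05). *Bop1*, part of a complex with *Pes1* and *Wdr12*, was the only member with a negative *RiboTag* value at IM3h, with 8.61, 8.999 and 0.823 CPM in the naïve libraries, then 2.54, 5.698, 7.76 and 1.03 CPM in the IM3h libraries (-0.47 ± 0.90 (SE), adjusted p = 0.803). The groups overlapped. In *ME* it was at 7.98, 3.66 and 6.66 CPM in naïve, 12.2, 12.6, 23.1 and 11.1 CPM in IM24h and 10.3, 12.3, 10.6 and 14.9 CPM in IM72h libraries (1.25 ± 0.37 (SE), adjusted p = 0.0272 and 0.91 ± 0.25 (SE), adjusted p = 0.00900), without overlap. *Noc2l* and *Noc3l* escort the precursor particle within the nucleus. *Noc2l* in *ME* rose from 9.55, 18.3 and 13.1 CPM to 26.9, 32.8 and 25.1 CPM at IM3h (1.12 ± 0.24 (SE), adjusted p = 0.00505) and lay at 6.98, 6.85, 3.32 and 4.49 CPM at IM72h, below naïve (-1.35 ± 0.30 (SE), adjusted p = 0.00251). In *RiboTag* at IM24h it had 37.1, 56.9, 229.9 and 72.96 CPM against 15.7, 16.5 and 15.7 CPM, all above (2.62 ± 0.61 (SE), adjusted p = 0.0769). *Nop16* in *RiboTag* rose from 4.56, 11.1 and 12.2 CPM to 41.1, 60.8, 44.2 and 46.1 CPM (2.42 ± 0.38 (SE), adjusted p = 0.00169) and had 0, 0.443, 0 and 0 CPM at IM72h. In *ME* it stayed above naïve throughout, from 11.001, 11.8 and 10.4 CPM to 32.4, 39.3 and 32.9 CPM at IM3h and 19.2, 20.4, 19.02 and 21.4 CPM at IM72h (0.83 ± 0.14 (SE), adjusted p = 4.62e-04). *Nop2*, an rRNA methyltransferase, likewise read 14.99, 12.3 and 12.95 CPM in naïve and 25.4, 31.3, 28.8 and 27.4 CPM in IM72h *ME* libraries (1.04 ± 0.14 (SE), adjusted p = 9.87e-05). *Rrp1b* changed least at IM24h in *ME*, from 14.4, 17.9 and 15.5 CPM to 13.3, 21.2, 31.6 and 18.1 CPM (0.41 ± 0.28 (SE), adjusted p = 0.312). *Noc3l* changed least at IM72h in *RiboTag*, at 0.10 ± 2.03 (SE), adjusted p = 0.991, with 6.58, 13.5 and 8.698 CPM in naïve and 0, 0, 16.5 and 23.8 CPM in IM72h libraries. Leaving out 1 library ended calls of Noc3l (without naïve library 3, adjusted p up to 0.0507), Nop2 (without naïve library 1, adjusted p up to 0.0508), Pes1 (without IM3h library 1 or 2 or 3 or 4 or naïve library 1 or 2 or 3, adjusted p up to 0.151) and Wdr12 (without naïve library 3, adjusted p up to 0.0725) in *RiboTag* at IM3h. It ended calls of Nop16 (without naïve library 1 or 2 or 3, adjusted p up to 0.0771) and Nop2 (without IM72h library 1 or 4 or naïve library 1 or 2 or 3, adjusted p up to 0.127) in *RiboTag* at IM72h, and of Gnl3 (without IM24h library 2 or IM3h library 1 or 2 or 3, adjusted p up to 0.0887) between IM24h and IM3h. In *ME* at IM24h it ended calls of Bop1 (without IM24h library 3 or naïve library 2 or 3, adjusted p up to 0.104), Gtpbp4 (without IM24h library 2 or 3 or naïve library 1 or 2 or 3, adjusted p up to 0.161), Nop2 (without IM24h library 2 or 3 or naïve library 1 or 2 or 3, adjusted p up to 0.124) and Wdr12 (without IM24h library 3 or naïve library 1 or 2 or 3, adjusted p up to 0.0920).

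Over the course in *ME*, 36 of the 39 genes were higher at IM3h, 21 at IM3h and IM24h, and 8 at all 3 times (all genes 7.8% and 5.09% of 14824), namely *Heatr1*, *Nhp2*, *Nop16*, *Nop2*, *Npm1*, *Pes1*, *Rrp9* and *Tsr1*. Another 10 were higher at IM3h and lower at IM72h (all genes 3.97%), namely *Ddx10*, *Ddx21*, *Gtpbp4*, *Ltv1*, *Mybbp1a*, *Ncl*, *Nob1*, *Noc2l*, *Nolc1* and *Nop14*. Of these, *Nop14*, *Ddx21*, *Mybbp1a* and *Gtpbp4* had values of 0.09, 0.09, 0.15 and 0.26 at IM72h without scaling, where the median of all genes was 0.98. The 3 patterns took in 58.3%, 22.2% and 27.8% of the 36 members higher at IM3h, against 40.9%, 26.7% and 20.8% of all 2826 genes higher then. The highest group mean was IM3h for 29 genes in *ME* and for 30 in *RiboTag*, IM24h for 9 and 5, and IM72h for 1 and 3. From IM3h to IM24h, 15 fell in *ME*, led by *Nop58* (-2.11), *Nolc1* (-1.66) and *Nop56* (-1.60), with a median of -0.38 against 0.04 over all genes, of which 13.4% fell. Without IM3h library 2 the 15 became 9, and besides *Nhp2* the calls of *Ddx10*, *Ddx21*, *Nob1*, *Rrp1b*, *Tsr1* and *Wdr3* were each lost with some single library left out. With scaling by library total this became 16 higher and 5 lower, where the median of all genes rose to 0.84. The members' median stayed 0.42 below it under both scalings. From IM24h to IM72h, 25 fell and 2 rose (19.9% and 18.6% of genes), led by *Noc2l* (-2.54), *Ncl* (-2.22) and *Ddx21* (-2.19), with a median of -1.03 against 0.01. Besides *Bysl* and *Nop56*, the calls of *Fbl*, *Npm3* and *Rrp1b* were lost with some single library left out. In *RiboTag*, 0 of 32 genes tested were called from IM24h to IM72h in either direction (edgeR, 0% of 9335 genes). At an unadjusted p under 0.05, 3 were lower and 0 higher (4.77% and 1.46% of genes). With DESeq2's size factors in edgeR the counts were also 0 and 0.

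Whether the 2 fractions responded differently was tested as the difference of their log2 fold changes, *RiboTag* minus *ME*, in one model. By the labels, the naïve and IM3h *ME* libraries came from another line than the *RiboTag* libraries, so at IM3h line and fraction cannot be told apart. At IM24h and IM72h the *ME* change includes a change of line, which cannot be told apart from a difference between the fractions. At IM3h, 0 of 39 genes differed (edgeR, 0.959% and 0.698% of 17617 genes), although 9 were higher and 0 lower at an unadjusted p under 0.05 (8.36% and 6.31%). The median difference was 0.52 against 0.02 over all genes. The smallest adjusted p-values were those of *Utp20* (1.83 ± 0.46 (SE), adjusted p = 0.0589), *Npm1* (1.06 ± 0.27 (SE), adjusted p = 0.0657) and *Ncl* (1.23 ± 0.33 (SE), adjusted p = 0.0802). At IM24h, 0 differed (edgeR, 0.274% and 0.263%), with 4 higher and 2 lower at an unadjusted p under 0.05 (6.14% and 7.32%). At IM72h, 2 were higher and 7 lower in *RiboTag* (2.15% and 21.1% of 16527 genes). *Ncl* (3.05 ± 0.34 (SE), adjusted p = 3.96e-04) and *Ddx21* (1.84 ± 0.48 (SE), adjusted p = 0.0117) were above naïve in *RiboTag* and below it in *ME*. The 7 lower ones were those at 3 or fewer counts in every IM72h *RiboTag* library, so the sizes of their differences are set by the low counts. Without a library the 9 calls held in each of the 14 fits. With scaling by library total *Ddx21* was at -0.27 where the median difference of all genes was -3.06, a distance of 2.79 against 2.83 with TMM. The AY036118 share of *RiboTag* libraries was highest at IM72h. Its part in these differences was not tested.

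**Figure D4:**
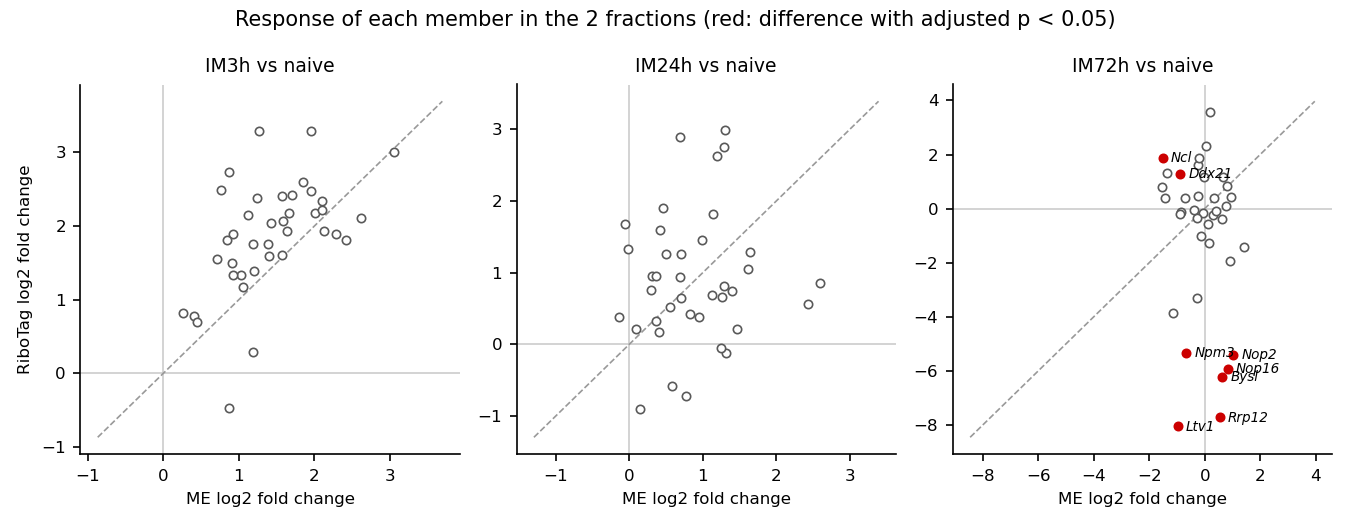
Log2 fold change against naïve libraries in *RiboTag* (vertical) against *ME* (horizontal) for each of the 39 genes that was tested in both, at IM3h, IM24h and IM72h, with genes whose 2 responses differed in red. At IM3h all points lie above 0 on both axes except that *Bop1* is below 0 in *RiboTag*, and at IM72h *Ncl* and *Ddx21* lie at the upper left.

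Further genes of the pathway, outside the 39, are given here by list, with those named chosen among the genes called. At IM3h, 8.86% of all genes were higher in *RiboTag* and 19.3% in *ME*. Of further small subunit assembly genes, 15 of 35 were higher and 0 lower in *RiboTag* (median 1.19) and 24 of 35 were higher and 0 lower in *ME* (0.80). In *RiboTag* these were led by *Utp4* (3.74), *Mphosph10* (2.71) and *Riok2* (2.45), and in *ME* by *Rcl1* (2.42), *Pwp2* (1.73) and *Utp4* (1.57). Of further large subunit assembly genes, 23 of 48 were higher and 0 lower in *RiboTag* (1.57), led by *Mak16* (3.30), *Rrs1* (2.95) and *Nifk* (2.88), and 34 of 48 were higher and 0 lower in *ME* (0.98), led by *Sdad1* (2.25), *Ppan* (2.22) and *Rrs1* (2.09). Of the RNA polymerase I machinery, 4 of 13 were higher and 0 lower in *RiboTag* and 8 of 13 were higher and 1 lower in *ME*. *Taf1d*, a subunit of the promoter-binding factor, rose in both (2.21 and 1.80), and *Taf1b* of the same factor fell in *ME* (-0.79). Of snoRNA particle assembly genes, 1 of 10 was higher in *RiboTag* and 3 of 9 in *ME*, with 0 lower. *Naf1*, an assembly factor of box H/ACA particles, was called in both (1.72 and 1.57). The *RiboTag* count of this last list is near the share of all genes. At IM24h in *ME*, 21 of 35 were higher and 1 lower among small subunit genes and 23 of 48 were higher and 1 lower among large subunit genes (all genes 15.6% and 13.4%), with *Nle1* at 2.32, *Rrp7a* at 1.93 and *Nat10*, an rRNA acetyltransferase, at -0.75. *Rrn3*, which recruits RNA polymerase I to the promoter, fell by 1.35 on the log2 scale at IM24h and by 1.05 at IM72h. At IM72h in *ME* the counts were 13 of 35 higher and 7 lower and 15 of 48 higher and 8 lower (all genes 29.3% and 28.3%), with *Eif6* at 2.01 and *Lsg1* at -1.14. In *RiboTag*, none of these lists held a call at IM24h (edgeR), where 8 of 35 small subunit and 10 of 48 large subunit genes were higher and 0 lower at an unadjusted p under 0.05 (all genes 7.14% and 6.03%), and at IM72h 5 of 34 small subunit and 3 of 44 large subunit genes were lower and 0 higher (all genes 15.1% and 1.05%).

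*Myc* itself, a transcription factor that drives many ribosome biogenesis genes, rose at IM3h in both fractions. In *RiboTag* its estimated counts were 0, 1 and 14 in naïve, 592, 414, 283 and 305 in IM3h, and 12, 0, 0 and 29 in IM24h libraries. The IM3h libraries were far above all others (5.98 ± 0.82 (SE), adjusted p = 7.34e-04), and IM24h overlapped naïve (1.63 ± 2.03 (SE), adjusted p = 0.819). *Myc* is not among the genes of the IM72h *RiboTag* table. In *ME* it was at 2.90, 0.65 and 1.94 CPM in naïve, 27.6, 50.2 and 18.8 CPM in IM3h, 12.4, 12.5, 17.3 and 7.69 CPM in IM24h, and 5.97, 4.74, 5.43 and 1.82 CPM in IM72h libraries. IM3h and IM24h lay above naïve, and IM72h overlapped it (4.07 ± 0.45 (SE), adjusted p = 9.63e-05, 2.69 ± 0.48 (SE), adjusted p = 0.00250 and 1.17 ± 0.49 (SE), adjusted p = 0.0596). *Mycn* was too low for the test in either fraction. Of the *Myc* network list, 2 of 9 were higher and 0 lower in *RiboTag* at IM3h (all genes 8.86% and 4.44%). In *ME* 4 of 8 were higher and 1 lower (19.3% and 13.4%). Among those called higher were *Mnt* (1.16 and 1.05) and *Max* in *ME* (0.92), the partner of *Myc* on DNA. In *RiboTag* 3 of the 9 had a positive and 6 a negative fold change, with a median of -0.23 on the log2 scale. In *ME* 5 were positive and 3 negative, with a median of 0.52. *Myc* and most of the 39 genes were highest at IM3h, and a link between them was not tested.

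The ribosomal proteins, which these factors assemble with rRNA, had a lower median fold change than the 39 genes at IM3h in both fractions. At IM72h they had a higher one in *ME* (0.65 against -0.03) and a lower one in *RiboTag* (-0.76 against -0.12). Many have near-identical copies in the genome, so their counts are uncertain. In *RiboTag* at IM3h, 14 of 76 were higher and 5 lower (median 0.37, all genes 8.86% and 4.44%), with *Rpl8* (1.21), *Rps7* (1.21) and *Rpsa* (1.203) the highest among those called and *Rpl29* (-1.66) and *Rpl28* (-0.92) among those that fell. In *ME* at IM3h, 35 of 77 were higher and 0 lower (median 0.32, all genes 19.3% and 13.4%), led by *Rpl5* (1.31), which forms a particle with 5S rRNA. Later in *ME*, 30 of 78 were higher and 5 lower at IM24h (median 0.42; all genes 15.6% and 13.4%) and 51 of 78 higher and 5 lower at IM72h (0.65; 29.3% and 28.3%). Of the 35 called higher at IM3h, 23 were so at IM24h and 33 at IM72h. Of all 2826 genes higher at IM3h, 40.9% were so at IM24h, and no such share was computed for IM72h. In *RiboTag*, *Rpl32* (1.86) alone of 75 was called at IM24h (0.366% of all genes higher), and 3 of 76 were higher and 4 lower at IM72h (all genes 1.05% and 15.1%).

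Summed over the 39 genes, the level in *RiboTag* was 1214, 1165 and 1128 CPM in naïve and 3924, 4776, 5114 and 6895 CPM in IM3h libraries. It was 1748, 5069, 6038 and 5184 CPM at IM24h and 2365, 2006, 2691 and 2187 CPM at IM72h, where *Ncl* alone made up 908 to 1665 CPM. Without *Ncl* the *RiboTag* sums were 780 to 842 CPM in naïve, 2651 to 4299 CPM in IM3h, 1168 to 2315 CPM in IM24h and 896 to 1097 CPM in IM72h libraries. In *ME* the level of all 39 was 1482, 1534 and 1505, 3699, 3761 and 4283, 2525, 2783, 3001 and 1908 and 1408, 1411, 1339 and 1427 CPM in the 4 groups in that order. All IM3h and IM24h libraries lay above naïve in both fractions, and the IM72h *ME* libraries below. The last rested on *Ncl*, without which the other 38 genes summed to 1214 to 1267 CPM at IM72h against 1091 to 1111 CPM in naïve *ME* libraries. The 12 markers of proliferating cells summed to 20.2 to 33.003 CPM in naïve, 36.7 to 40.2 CPM in IM3h, 82.1 to 140.2 CPM in IM24h and 446 to 562 CPM in IM72h *ME* libraries, with 2 of 7 higher and 0 lower, 7 of 11 higher and 0 lower and 12 of 12 higher and 0 lower at the 3 times. The proliferation sum was highest at IM72h, and the sum of the 39 genes, with or without *Ncl*, at IM3h. In *RiboTag* the proliferation markers summed to 21.8 to 42.7, 22.4 to 80.04, 79.6 to 274 and 286 to 579 CPM. The 8 macrophage markers in *ME* summed to 187 to 196 CPM in naïve and 155 to 178 CPM in IM3h, then to 519 to 686 CPM and 1211 to 1530.0 CPM, with 2 of 8 higher and 2 lower, 6 of 8 higher and 0 lower and 8 of 8 higher and 0 lower. Neutrophil markers in *ME* rose already at IM3h, from 0.847 to 1.08 CPM to 25.1 to 33.8 CPM (3 of 3 higher and 0 lower), and to 46.3 to 216 CPM and 20.1 to 57.7 CPM later. In *RiboTag* at IM3h, 0 of 8 macrophage, 0 of 1 neutrophil and 0 of 8 proliferation markers were called higher (edgeR), with 1 of each list at an unadjusted p under 0.05, and their sums were 65.2 to 129, 3.04 to 9.24 and 22.4 to 80.04 CPM against 88.98 to 173, 1.24 to 3.17 and 21.8 to 42.7 CPM in naïve libraries. The naïve *RiboTag* libraries listed *Mmp8* and *Retnlg* among the neutrophil markers at 0. Other markers fell with the rise at IM3h. The 4 mesothelium markers went from 86.7 to 126 CPM in naïve to 1.77 to 11.7 CPM in IM3h *ME* libraries (4 of 4 lower) and from 83.6 to 238 to 6.93 to 68.1 CPM in *RiboTag* (3 of 4 lower). Fibroblast markers went from 1954 to 2068 to 884 to 990.3 CPM in *ME* (4 of 5 lower) and from 641 to 755 to 215 to 303 CPM in *RiboTag* (3 of 6 lower). Interstitial cell of Cajal markers in *ME* summed to 366 to 372 CPM in naïve, 256 to 268 CPM in IM3h (3 of 4 lower) and 157 to 182 CPM in IM72h libraries (4 of 4 lower). In *RiboTag* they went from 161 to 225 CPM in naïve to 63.2 to 148 CPM in IM3h libraries (1 of 4 lower). Epithelium markers in *ME* varied within groups, at 70.1 to 229 CPM in naïve, 107 to 638 CPM in IM3h, 34.2 to 76.4 CPM in IM24h and 117 to 278 CPM in IM72h libraries. Of the 5, 0 were called at IM3h (edgeR, 1 higher at an unadjusted p under 0.05), 4 were lower at IM24h than at IM3h, and 4 were higher at IM72h than at IM24h. Those of smooth muscle in *ME* summed to 22137 to 23746 CPM in naïve and 3245 to 10822 CPM in IM24h libraries (5 of 7 lower). In *RiboTag* the smooth muscle sum went from 4890 to 7495 CPM in naïve to 1948 to 5030 CPM in IM3h libraries (3 of 7 lower). Macrophage markers in *RiboTag* summed to 236 to 549.5 CPM at IM72h (1 of 7 higher). The part of these cells in the changes of the 39 genes was not tested.

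**Figure D5:**
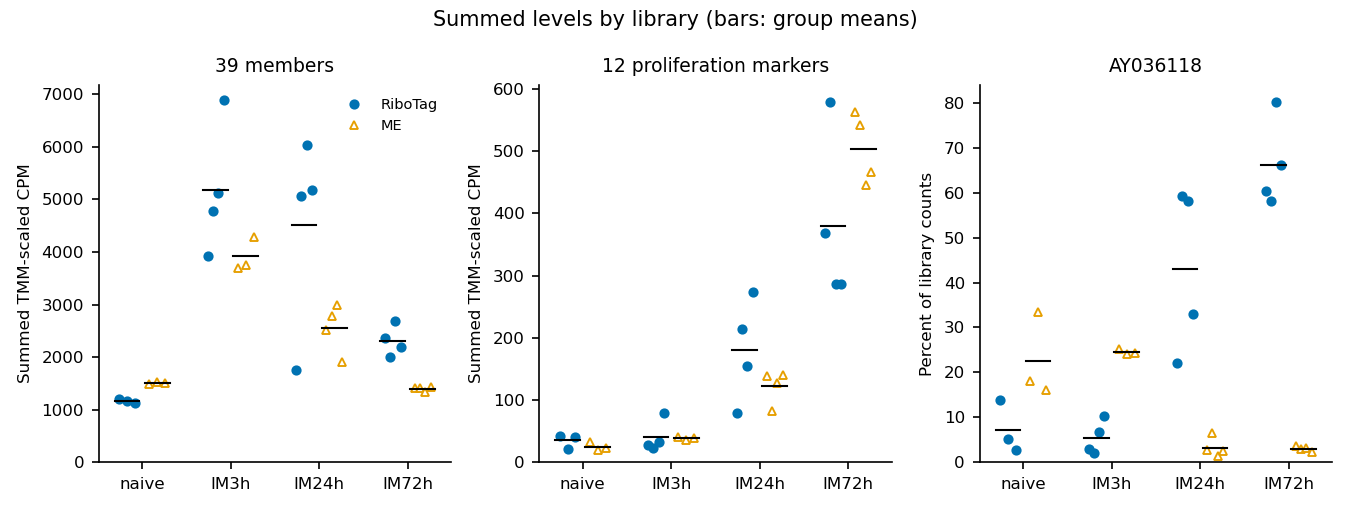
Summed CPM of the 39 genes and of 12 proliferation markers, and the percent of counts taken by AY036118, in each library by group and fraction, with bars at the group means. In *ME* the 39 genes are highest at IM3h, at 3699 to 4283 CPM, and the proliferation markers at IM72h, and in *RiboTag* the AY036118 share is highest at IM72h.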

How the data were processed

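Estimated counts were used as the authors deposited them, per gene for *ME* and per transcript for *RiboTag*, summed here by gene symbol and rounded. Per the study's methods and the submitters' processing notes, the authors made 3′ end libraries, trimmed the single-end reads with cutadapt, aligned them to mm10 with STAR and quantified Ensembl transcripts in Partek Flow, without scaling. Tables list features with a total of at least 10 counts. Groups were read from each table's own group entry (0 lines without a group). Line names match no label, so libraries were numbered by name. The labels list 1 more naïve *RiboTag* sample than was used here. 4 tables of the authors' comparisons (p-values, fold changes, group means) were not used. Genes passing edgeR's expression filter were tested with edgeR 4.0.16 (TMM, quasi-likelihood; R 4.3.3, limma 3.58.1) over the 2 groups compared, or over both fractions with an interaction, in 13 comparisons with Benjamini-Hochberg adjustment over all genes tested. A call is an adjusted p under 0.05. For genes with 3 or fewer counts in every library of a group, a bound against 3 counts is given as well. The group medians use the fitted values. Alternatives were DESeq2 1.42.0 and its size factors, other scalings, no filter, all groups in one fit, the transcript table and each library left out. Scripts were tested on simulated data. Counts of libraries of a group differed by more than sampling noise (chi-square per degree of freedom 5.09 to 145). The members and gene lists were chosen with earlier results of these data known. All 39 genes may be named; levels by library are given for those with the largest and smallest change of each role group in a comparison and for members called against the majority, and of other lists up to 3 genes rising and 3 falling most.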

Additional observations from a re-analysis of the deposited data

Results flagged for a closer look

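Of 192 groups of 4 libraries in which a gene's level was examined, 26 held a library far from the other 3. In 7 of them the other 3 were at 0, so that any count stood apart, and of the other 185 groups 19 held one, where chance alone gives about 1 in 20. Of the 26, 16 fell in IM72h *RiboTag* libraries, the group with the fewest counts outside AY036118. IM24h *ME* library 3 stood apart in *Bop1* (23.1 CPM, others 11.1 to 12.6) and *Noc2l* (41.99 CPM, others 26.2 to 27.6). In IM24h *ME* library 4 the gene was *Nop16* (16.9 CPM, others 29.97 to 32.5). IM24h *RiboTag* library 1 stood apart in *Bop1* (19.4 CPM, others 0 to 3.25). In IM24h *RiboTag* library 3 the gene was *Npm3* (108 CPM, others 9.36 to 20.002). IM24h *RiboTag* library 4 stood apart in *Nhp2* (43.4 CPM, others 9.37 to 14.9) and *Utp18* (21.8 CPM, others 0 to 1.01). In IM3h *RiboTag* library 4 the gene was *Pes1* (76.96 CPM, others 34.4 to 37.2). IM72h *ME* library 1 stood apart in *Bysl* (54.97 CPM, others 69.7 to 72.03). In IM72h *ME* library 4 the gene was *Nop58* (63.4 CPM, others 44.5 to 47.1). IM72h *RiboTag* library 1 stood apart in *Dkc1* (60.3 CPM, others 1.25 to 4.86) and *Polr1a* (56.96 CPM, others 0.626 to 5.83). In IM72h *RiboTag* library 2 the genes were *Gnl3* (31.9 CPM, others 0 to 3.89), *Nhp2* (17.7 CPM, others 0), *Nop16* (0.443 CPM, others 0), *Pes1* (45.2 CPM, others 2.87 to 7.77), *Rrp1b* (6.21 CPM, others 0), *Utp20* (17.7 CPM, others 0) and *Wdr3* (102 CPM, others 0 to 16.8). IM72h *RiboTag* library 3 stood apart in *Nop2* (0.972 CPM, others 0) and *Tsr1* (59.3 CPM, others 0 to 1.33). In IM72h *RiboTag* library 4 the genes were *Bysl* (1.25 CPM, others 0), *Heatr1* (10.02 CPM, others 0 to 0.443), *Nolc1* (8.76 CPM, others 0), *Npm1* (385 CPM, others 79.7 to 123) and *Utp15* (13.1 CPM, others 0 to 0.443).

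The responses of the 2 fractions at IM72h differed for 9 genes, given as the *RiboTag* minus the *ME* log2 fold change from edgeR, with an adjusted p over all genes. *RiboTag* was relatively higher for *Ncl* (3.05, adjusted p = 3.96e-04) and *Ddx21* (1.84, adjusted p = 0.0117). It was relatively lower for *Npm3* (-4.94, adjusted p = 0.00333), *Bysl* (-7.24, adjusted p = 6.75e-04), *Ltv1* (-8.09, adjusted p = 0.00238), *Rrp12* (-9.27, adjusted p = 6.63e-04), *Nop2* (-7.03, adjusted p = 9.12e-04), *Nop16* (-6.99, adjusted p = 8.19e-04) and *Bop1* (-9.78, adjusted p = 0.00238). These last 7 genes had 3 or fewer counts in every IM72h *RiboTag* library, and the sizes of their differences depend on how the model treats such counts. By the labels the naïve and IM72h *ME* libraries came from different lines, which cannot be told apart from any of these differences.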

How the results depend on the processing

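Of the values that answer a comparison, 477 of the alternatives' values stayed within 1.5 times the count or 1 SD of the median, 89 moved and 4 reversed; for single called genes 2157 kept their call, 306 lost it and 13 turned. With scaling by library total, no scaling and scaling by *Actb*, *Hsp90ab1* and *Rplp1*, in that order, the members' median became 1.73, 2.198 and 1.56 in *RiboTag* at IM3h, -0.018, -0.025 and -0.62 a day after, and -1.94, -2.35 and -1.67 at IM72h, and in *ME* 1.13, 1.24 and 0.98, then 1.40, 1.28 and 0.38, then 0.56, 0.94 and -0.62. Under these, *RiboTag* had 0 members higher at IM24h and 0 at IM72h with each, and 10 at IM3h with the 3 genes. *ME* had 38 higher at IM24h with library total and 8 with the 3 genes, and at IM72h 20 higher and 5 lower, 25 and 0, and 1 and 21. Without scaling, at IM72h *Ncl* in *RiboTag* was -0.48, and in *ME* *Npm3* 0.33, *Mybbp1a* 0.15, *Ddx21* 0.088, *Nop14* 0.094 and *Gtpbp4* 0.26. With the 3 genes, *Nop10* at IM3h was -0.0097 and *Tsr1* at IM72h -0.18 in *ME*. With library total, IM24h against IM3h had 1 lower (median -1.74) in *RiboTag* and 16 higher and 5 lower (0.43) in *ME*, where *Ddx21* was 0.23, *Wdr3* 0.020, *Ddx10* 0.017 and *Tsr1* 0.22. IM72h against IM24h in *ME* then had 1 higher, the difference between fractions at IM24h a median of -1.35, and at IM72h 0 higher and 13 lower, a median of -2.62 and *Ddx21* at -0.27. All groups in one fit called 2 higher in *RiboTag* at IM3h and 2 at IM24h. At IM24h in *RiboTag*, DESeq2 called 4, no filter 3, and an unadjusted p under 0.05 with more than 2-fold 8; the last gave 2 higher and 5 lower in *ME* at IM72h. No filter gave 0 and 0 in *RiboTag* at IM72h. Without IM24h libraries 2 and 3, an alternative chosen after seeing the data, 2 were called. The cause of the changes with one fit, no filter or fewer libraries was not tested. The scalings moved the median of all genes nearly as much as the members', which under TMM and these 3 stayed 1.95 to 2.002, 0.88 to 0.95 and 0.19 to 0.40 above that of all genes in *RiboTag*, and 1.38 to 1.39 above, 0.72 to 0.75 above and 0.04 to 0.06 below it in *ME*, at the 3 times. Leaving out 1 library at a time, with a group's spread still pooled in the fit, gave in *RiboTag* 24 to 33 higher (median 1.86 to 2.11) at IM3h, 0 to 6 (0.60 to 0.95) at IM24h, and 1 higher and 2 to 9 lower (-0.58 to 0.10) at IM72h, the extremes without naïve library 3, IM24h library 2 or 1, and naïve library 1 or IM72h library 2. In *ME* it gave 33 to 36 (1.31 to 1.40), 13 to 27 (0.70 to 0.87), and 10 to 12 higher with 11 to 12 lower (-0.10 to 0.11), the 13 without naïve library 2. Between times it gave 0 to 2 lower (-1.14 to -0.85) and 0 (-1.32 to -0.90) in *RiboTag*, and in *ME* 0 to 3 higher and 9 to 15 lower (-0.51 to -0.28), then 0 to 2 and 22 to 27 (-1.07 to -0.94). For the difference between fractions it gave 0 to 4 higher (0.44 to 0.61), 0 to 2 (-0.36 to 0.21), and 2 to 3 higher with 7 to 12 lower (-0.72 to -0.36). No paired analysis was possible because the lines of the tables carry no replicate number. Per the study's methods, each lysate was divided into an input and a pulldown portion. Libraries of the 2 fractions may therefore share a mouse, and the model of their difference treats them as independent. The few counts outside AY036118 in IM72h *RiboTag* libraries limit what can be seen there.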
